A study of Mus musculus with 9 samples.

Results

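Dbp, Hlf, Tef and Nfil3 encode transcription factors that carry the daily rhythm of the circadian clock to liver metabolism, and their mRNA was compared here between livers of mice on a high-fat diet (HFD) and livers of control mice. The members are all probe sets that the array's annotation pairs with exactly 1 of these 4 gene symbols. They are 8 of the 41782 probe sets tested, namely 2 for Dbp, 2 for Hlf, 3 for Tef and 1 for Nfil3. A probe set is the group of short array oligonucleotides read together as 1 value.

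The liver RNA came from c57Bl/6 mice that were fed chow before the study. The 5 HFD arrays carry the diet label of 21% fat, a Harlan-Teklad diet with 42% of its calories from fat, and the 4 control arrays carry the diet label control. Sex, age, the length of feeding and the hour of tissue collection are not in the labels, nor whether the arrays came from different animals. P-values therefore cover the array-to-array spread alone, and part of that spread may be technical.

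Each value is a log2 difference from a baseline that the authors set for each probe set. For 92.1% of probe sets, 0 lay midway between neighbouring values in the middle of the ranked arrays (tolerance 1e-05), as it does when the baseline is the median of 10 arrays. Only the 9 described here were analysed. A shared baseline cancels in every difference between HFD and control. Levels cannot be compared between genes, and absence of a transcript cannot be read from these values. Differences are HFD minus control on this log2 scale, ± the standard error of limma, a linear model fitted to all probe sets. The threshold is an adjusted p of 0.05, by Benjamini-Hochberg over all probe sets.

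Dbp, Hlf and Tef form the PAR bZIP family, named for a domain rich in proline and acidic amino acids beside the basic leucine zipper. They bind DNA as dimers at an element called the D-box and activate transcription there. Nfil3, a related basic leucine zipper protein without the PAR domain, binds the same element and represses it. In mouse liver the PAR bZIP mRNAs and proteins and Nfil3 peak at different times of day, and their shared targets include genes of drug, bile acid and fatty acid metabolism.

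The stretches upstream of the annotated starts of the genes whose calls are described first, Hlf and Nfil3, are shown with the Tef stretches that hold an E-box, the element bound by the clock activators Clock, Npas2 and Arntl. Sequences are from RefSeq, build GRCm38.p6, read 5′ to 3′ on the strand of the gene. Those of Hlf and Nfil3 are the 250 bases that end before the start. Those of Tef are stretches of 60 bases around each E-box and end further upstream. All 4 genes matched, with 2 starts for Tef. Capitals mark matches on either strand to the letters CACGTG (E-box), TTATGTAA or TTACGTAA (D-box), TGACGTCA (cAMP response element) and AGGTCA (the core of the element bound by ROR and REV-ERB receptors).
Hlf, chr11:90390918-90391167, minus strand: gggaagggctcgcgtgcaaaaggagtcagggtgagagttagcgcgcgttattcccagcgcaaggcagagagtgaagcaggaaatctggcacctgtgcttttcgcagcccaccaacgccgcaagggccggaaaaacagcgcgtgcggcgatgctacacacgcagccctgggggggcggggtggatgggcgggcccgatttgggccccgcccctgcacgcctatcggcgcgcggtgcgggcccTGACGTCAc
Nfil3, chr13:52981040-52981289, minus strand: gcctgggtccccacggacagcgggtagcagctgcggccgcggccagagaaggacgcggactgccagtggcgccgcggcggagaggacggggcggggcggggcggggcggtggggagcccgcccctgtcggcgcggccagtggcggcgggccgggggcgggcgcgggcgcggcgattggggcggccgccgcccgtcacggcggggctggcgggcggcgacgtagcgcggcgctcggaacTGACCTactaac
Tef, upstream start, chr15:81802519-81802578, plus strand: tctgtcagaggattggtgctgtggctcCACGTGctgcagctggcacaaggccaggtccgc
Tef, downstream start, chr15:81811249-81811308, plus strand: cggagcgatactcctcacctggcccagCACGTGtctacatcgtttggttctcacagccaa

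Each Tef window of 250 bases held 1 E-box, at bases 127 to 122 before the upstream start and 138 to 133 before the downstream start. Over all 32851 windows of this length in the table, 6.02% held an E-box. The Hlf window held a cAMP response element at bases 9 to 2 before the start, as 1.55% of windows did. The Nfil3 window held the letters AGGTCA on the opposite strand at bases 12 to 7, as 14% of windows did. None of these letters stood in the Dbp window, and no member's window held a D-box, which 0.931% of windows held. These are matches of letters, not tested sites.

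Hlf rose and Nfil3 fell in HFD livers, whereas Dbp and Tef had positive differences that did not pass over all probe sets. All 7 probe sets of the activators had positive differences, and 2 of them, those of Hlf, passed the threshold. Of all probe sets 3.26% passed, 2.04% as higher in HFD. The single Nfil3 probe set passed in the opposite direction, as 1.23% of all probe sets did. Every HFD array lay above every control array in 3 of the 7 activator probe sets (4.5% of all probe sets), and every HFD array lay below every control array for Nfil3 (3.5% of all probe sets).

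**Figure D1:**
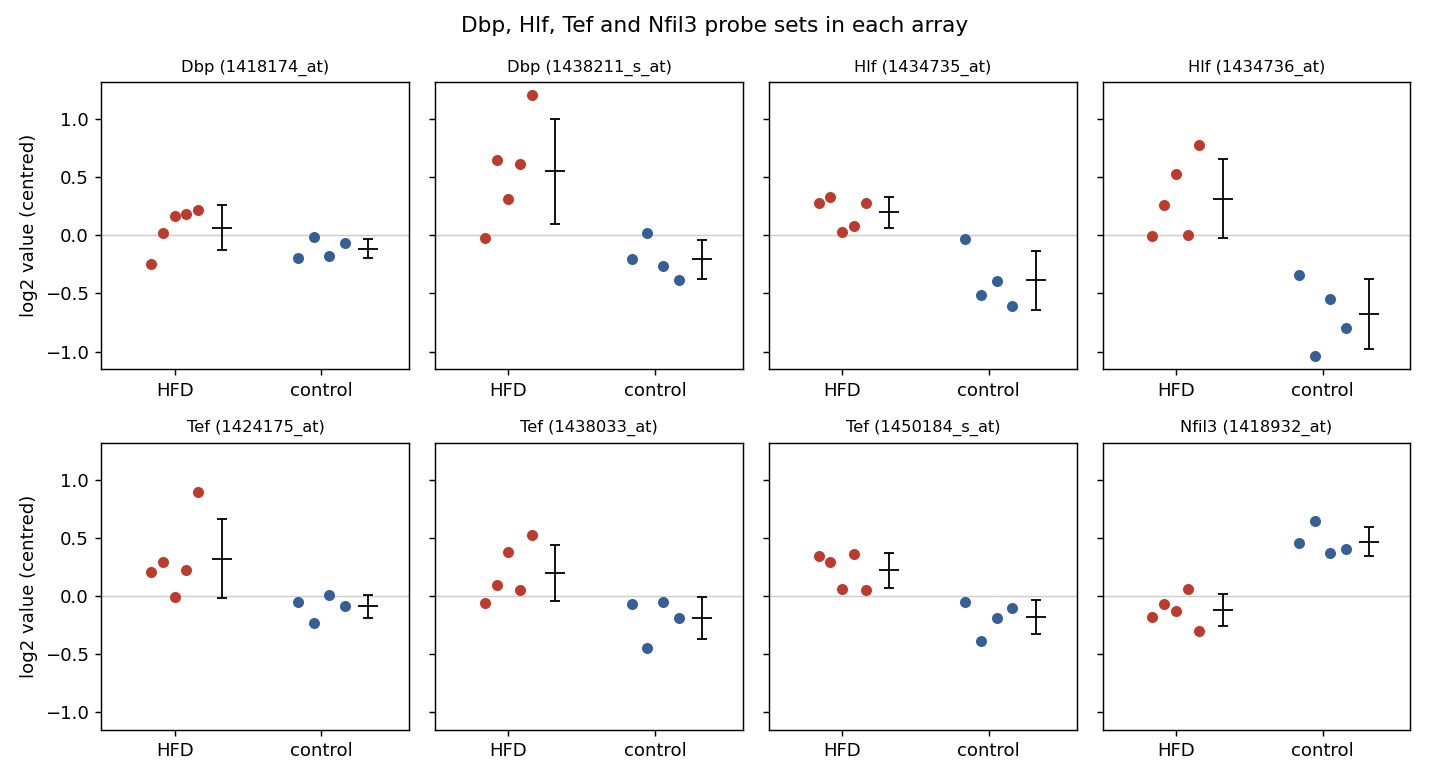
Log2 value, relative to the baseline of each probe set, in each of the 5 HFD arrays (red) and 4 control arrays (blue) for the 8 probe sets, with group means and SD in black. The HFD and control points are apart for both Hlf probe sets, for Tef 1450184_s_at and, in the opposite direction, for Nfil3.

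Hlf, the hepatic leukaemia factor, is a PAR bZIP activator of liver and brain. Probe set 1434736_at stood at -0.01, 0.26, 0.53, 0.01 and 0.78 in HFD replicates 1 to 5, against -0.34, -1.04, -0.54 and -0.79 in control replicates 1 to 4. The lowest HFD array, HFD replicate 1, lay above the highest control array, control replicate 1. The group means were 0.31 ± 0.34 in HFD (SD, n = 5) and -0.68 ± 0.30 in control (SD, n = 4). The difference of 0.99 ± 0.18 corresponds to a 1.99-fold higher signal in HFD livers (95% confidence interval 1.5 to 2.64, limma adjusted p = 0.017). Of all probe sets, 0.598% had a larger positive difference.

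The second Hlf probe set, 1434735_at, stood at 0.27, 0.33, 0.03, 0.08 and 0.28 in HFD replicates 1 to 5, against -0.03, -0.52, -0.39 and -0.60 in control replicates 1 to 4. These groups did not overlap either, and control replicate 1 was again the control nearest to HFD. Its difference was 0.58 ± 0.12, or 1.5-fold (interval 1.24 to 1.80, limma adjusted p = 0.0275). The annotation gives both Hlf probe sets the same accession, so that they are not independent measurements. The call of 1434736_at ended on leaving out HFD replicate 3 or either of control replicates 2 and 4 (highest adjusted p = 0.0627). That of 1434735_at ended on leaving out HFD replicate 1 or 2 or control replicate 2, 3 or 4 (highest adjusted p = 0.098), so that 1 of the 8 member probe sets passed without control replicate 2 or control replicate 4.

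Nfil3, the repressor of the D-box, stood at -0.18, -0.06, -0.13, 0.06 and -0.30 in HFD replicates 1 to 5, against 0.45, 0.65, 0.37 and 0.40 in control replicates 1 to 4. All HFD arrays were below all control arrays, with HFD replicate 4 the highest of its group and HFD replicate 5 the lowest. Nfil3 averaged -0.12 ± 0.14 in HFD (SD, n = 5) and 0.47 ± 0.12 in control (SD, n = 4). It fell by 0.59 ± 0.09 on the log2 scale, a 1.5-fold lower signal in HFD livers (limma adjusted p = 0.00841). The call held when any 1 array was left out, with adjusted p between 0.00775 and 0.0329.

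Dbp, a PAR bZIP activator named for its binding to the D site of the albumin promoter, was measured by probe sets whose differences were unequal. In 1438211_s_at the values were -0.02, 0.65, 0.31, 0.61 and 1.20 in HFD replicates 1 to 5, against -0.21, 0.02, -0.26 and -0.38 in control replicates 1 to 4. The groups overlapped through HFD replicate 1, which lay below control replicate 2. The difference of 0.76 ± 0.20 (1.69-fold, interval 1.24 to 2.31) did not pass (limma adjusted p = 0.0768). It passed without HFD replicate 1 (0.90, adjusted p = 0.0272).

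The other Dbp probe set, 1418174_at, stood at -0.24, 0.02, 0.17, 0.18 and 0.22 in HFD replicates 1 to 5, against -0.19, -0.02, -0.18 and -0.07 in control replicates 1 to 4. HFD replicate 1 was the lowest of all 9 arrays. The difference was 0.18 ± 0.10 (1.13-fold, interval 0.97 to 1.33, limma adjusted p = 0.428). A name ending in _s_at marks a probe set whose oligonucleotides can match more than 1 transcript, and which Dbp probe set is nearer to the mRNA was not tested.

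Tef, the thyrotroph embryonic factor and the remaining PAR bZIP activator, had differences of nearly the same size in its 3 probe sets. In 1450184_s_at the values were 0.34, 0.29, 0.06, 0.36 and 0.05 in HFD replicates 1 to 5, against -0.05, -0.38, -0.19 and -0.10 in control replicates 1 to 4. The groups did not overlap, HFD replicate 5 being the HFD array nearest to control, and the difference was 0.40 ± 0.10 (1.32-fold, interval 1.13 to 1.54, limma adjusted p = 0.06). It passed on leaving out HFD replicate 5 (adjusted p = 0.0468). Probe set 1424175_at stood at 0.20, 0.29, -0.01, 0.22 and 0.90 in HFD replicates 1 to 5, against -0.05, -0.23, 0.01 and -0.08 in control replicates 1 to 4. There HFD replicate 5 was the highest array and HFD replicate 3 lay among the controls, with a difference of 0.41 ± 0.16 (limma adjusted p = 0.211).

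The third Tef probe set, 1438033_at, stood at -0.06, 0.09, 0.38, 0.05 and 0.52 in HFD replicates 1 to 5, against -0.07, -0.45, -0.05 and -0.19 in control replicates 1 to 4. HFD replicate 1 lay between the controls, and the difference was 0.39 ± 0.13 (limma adjusted p = 0.163). With the probe sets of each gene averaged and the model fitted to all 17514 genes, Tef passed with a difference of 0.40 (adjusted p = 0.0295), Hlf passed with 0.79 (adjusted p = 0.00755) and Dbp did not with 0.47 (adjusted p = 0.0853). The HFD array that ranked highest differed between the Tef probe sets, and the sources used here do not tie them to the different starts of the gene.

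Set against Nfil3 within each array, every activator stood higher in every HFD array than in any control array. Each gene was represented here by its most variable probe set across the arrays, a choice that favours larger differences. Nfil3 by itself was already apart, at most 0.06 in HFD arrays and at least 0.37 in control arrays. In these probe sets Dbp and Tef overlapped between the groups, and they separated only once Nfil3 was subtracted. The share of all genes that would separate after this subtraction was not computed. Hlf minus Nfil3 was 0.17, 0.33, 0.65, -0.06 and 1.08 in HFD replicates 1 to 5, against -0.80, -1.68, -0.91 and -1.19 in control replicates 1 to 4. Its mean was 0.44 ± 0.44 in HFD (SD, n = 5) and -1.15 ± 0.39 in control (SD, n = 4), so that the balance of Hlf over Nfil3 was 3.0-fold higher in HFD livers.

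Dbp minus Nfil3 was 0.16, 0.71, 0.44, 0.54 and 1.51 in HFD replicates 1 to 5, against -0.66, -0.63, -0.63 and -0.78 in control replicates 1 to 4. The control arrays lay close together, and the balance was 2.54-fold higher in HFD livers. Tef minus Nfil3 was 0.38, 0.36, 0.12, 0.16 and 1.20 in HFD replicates 1 to 5, against -0.51, -0.88, -0.36 and -0.48 in control replicates 1 to 4, a balance 2.0-fold higher in HFD livers. HFD replicate 5 had the highest value in each of the 3 comparisons. These balances carry no test, since the members were chosen with results known, and all 3 share the values of Nfil3.

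**Figure D2:**
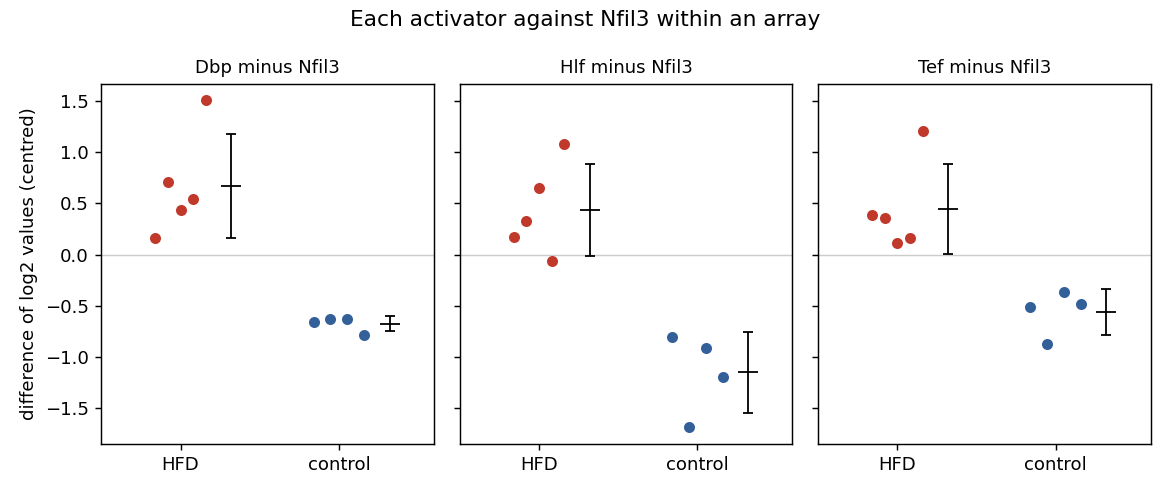
Difference of log2 values between each activator and Nfil3 in the same array, for the 5 HFD arrays (red) and 4 control arrays (blue), with group means and SD in black. In each panel the lowest HFD array lies above the highest control array, and HFD replicate 5 is the highest. Nfil3 by itself also separates the groups.

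Clock genes were examined as a list of 20 genes, of which 18 were measured, each by its most variable probe set. P-values were adjusted by Benjamini-Hochberg over all 17514 genes. Of the 18, 3 rose and 0 fell in limma, where 5.24% of all genes passed, 3.37% as higher and 1.87% as lower in HFD. At an unadjusted p under 0.05, 7 of the 18 were higher and 0 lower, beside 10.3% of all genes higher and 8.78% lower. Clock was among the 7 at 0.40, with its other probe sets at -0.09, 0.09 and -0.04. Csnk1e was at 0.45, with its others at -0.07 and -0.05, and Bhlhe41 at 0.21, with its other at -0.14. Every HFD array lay above every control array for 5 of the 18, which held for 5.62% of all genes. The median difference of the list was 0.28, beside -0.02 over all genes, and 13 members had positive differences.

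Nr1d1 and Nr1d2 encode the REV-ERB receptors, repressors that bind the ROR element and are known to repress Nfil3 in mouse liver. Nr1d1 stood at -0.03, 0.91, 0.61, 0.95 and 0.06 in HFD replicates 1 to 5, against -0.29, -0.43, -0.63 and -0.87 in control replicates 1 to 4. The groups did not overlap, with HFD replicates 1 and 5 nearest to control, and Nr1d1 rose by 1.05 ± 0.22 (adjusted p = 0.0235). Its call ended on leaving out HFD replicate 3 or control replicate 2, 3 or 4 (highest adjusted p = 0.0717).

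Nr1d2 stood at 0.08, 0.56, 0.58, 0.81 and 0.68 in HFD replicates 1 to 5, against -0.78, -0.66, -0.08 and -0.34 in control replicates 1 to 4, without overlap. It rose by 1.00 ± 0.17 (adjusted p = 0.0102), while its other probe set, 1416959_at, differed by 0.42 without passing (adjusted p over all probe sets = 0.222). Npas2, a partner of Arntl in the activating limb of the clock, stood at 0.67, 0.42, 0.79, -0.08 and 0.38 in HFD replicates 1 to 5, against -0.38, -0.44, -0.48 and -0.56 in control replicates 1 to 4. It rose by 0.90 ± 0.16 (adjusted p = 0.0097), with its other probe set, 1421036_at, at 0.24 (adjusted p over all probe sets = 0.46).

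Per2, a repressor of the negative limb, differed by 0.87 ± 0.25 and did not pass (adjusted p = 0.0782), although its groups did not overlap. Another Per2 probe set, 1417603_at, had a difference of -0.03, and the third, 1417602_at, one of 0.62 (adjusted p over all probe sets = 0.202). Arntl, the core activator, differed by -0.22 ± 0.21 with overlapping groups, while its other probe set, 1457740_at, was at 0.19 (adjusted p over all probe sets = 0.595). Per1 was spread from -1.31 to 0.87 in HFD arrays, against -0.10 to 0.21 in control arrays. Arntl, Per1, Clock, Csnk1e and Bhlhe41 were singled out after their values were seen. The hour of collection is not in the labels, and it may have differed between the groups. A difference in that hour, a shift of the clock's phase and a change in level cannot be told apart.

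**Figure D3:**
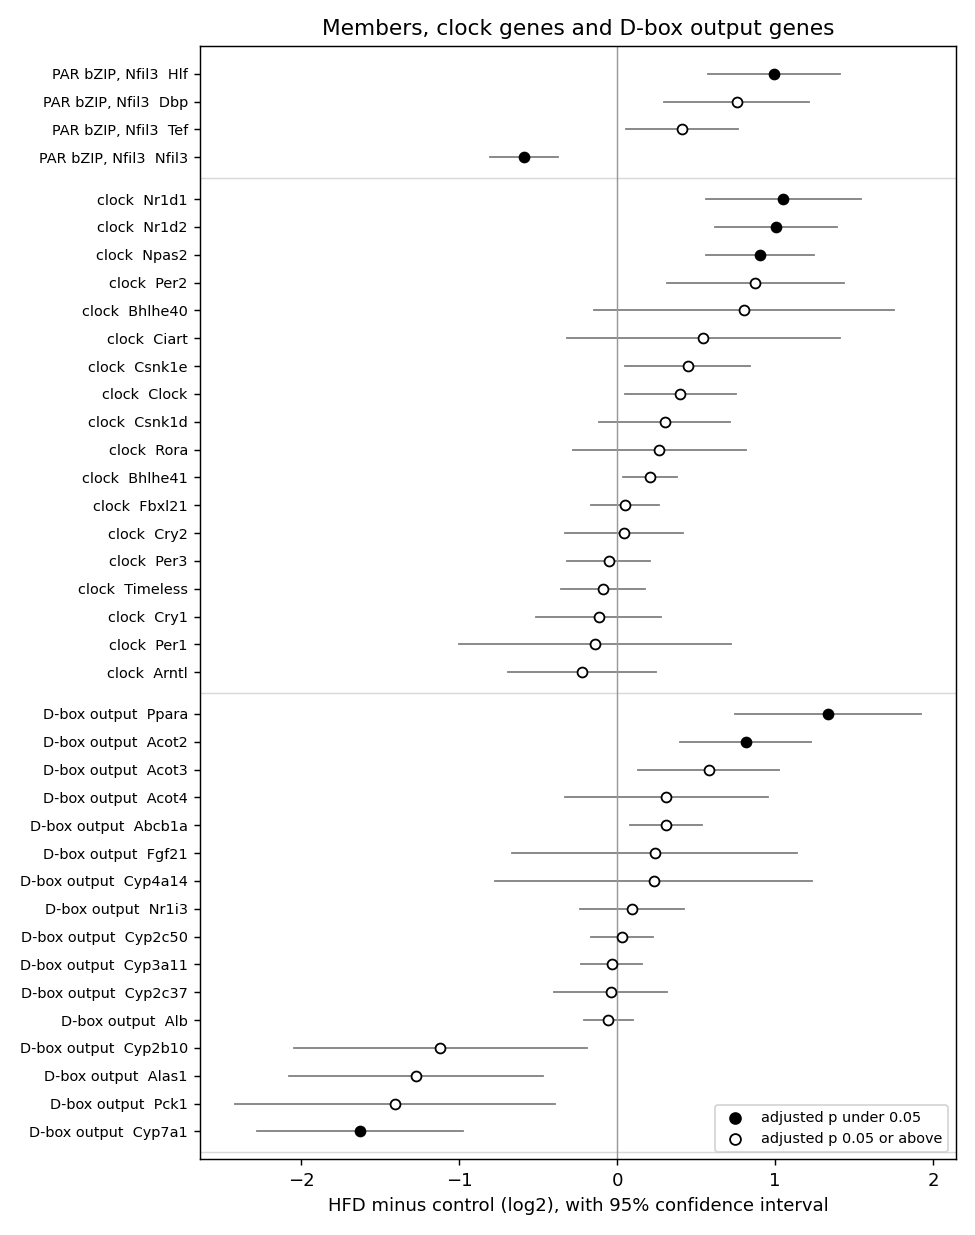
Log2 difference (HFD minus control) and its 95% confidence interval for the 4 members, 18 clock genes and 16 D-box output genes, 1 probe set per gene, with filled points for an adjusted p under 0.05. Hlf, Nr1d1, Nr1d2, Npas2, Ppara and Acot2 are filled above 0, and Nfil3 and Cyp7a1 are filled below 0.

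Genes reported in earlier work to depend on PAR bZIP factors or Nfil3 were examined as a list of 20, of which 16 were measured. Por, Cyp2a4, Cyp2a5 and Cyp4a10 were not analysed here. Of the 16, 2 rose and 1 fell, and the median difference was 0.06. These shares stand beside the 3.37% of all genes that rose and the 1.87% that fell. At an unadjusted p under 0.05, 4 of the 16 were higher and 4 lower, beside 10.3% of all genes higher and 8.78% lower. Positive differences numbered 9 and negative ones 7.

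Ppara, the fatty acid receptor whose activity PAR bZIP factors are known to promote in mouse liver, stood between 0.10 and 0.59 in HFD arrays, against -1.55 to -0.10 in control arrays. It rose by 1.34 ± 0.27 (adjusted p = 0.0185), and all 3 of its probe sets passed. Acot2, a thioesterase that releases fatty acids from acyl-CoA, stood between -0.05 and 0.90 in HFD arrays, against -0.48 to -0.27 in control arrays. It rose by 0.81 ± 0.19 (adjusted p = 0.0337), with its other probe set, 1422996_at, at 0.15 (adjusted p over all probe sets = 0.694). The call of Ppara ended on leaving out HFD replicate 3 or either of control replicates 2 and 4 (highest adjusted p = 0.0625). That of Acot2 ended without any 1 array other than HFD replicate 1 or HFD replicate 2 (highest adjusted p = 0.106).

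Cyp7a1, which catalyses the slowest step in making bile acids and is a gene that Dbp is known to activate in rat, stood between -1.35 and 0.30 in HFD arrays, against 0.82 to 1.69 in control arrays. It fell by 1.63 ± 0.30 (adjusted p = 0.0123), opposite in sign to Ppara and Acot2, and both of its probe sets passed. Its HFD arrays were all below its control arrays, which held for 4.2% of all genes. Alas1, the first enzyme of haem synthesis and another output of the PAR bZIP factors, had a difference of -1.27 ± 0.36 (adjusted p = 0.0756). Acot4, a thioesterase related to Acot2, did not pass by its most variable probe set (0.31), whereas its other probe set, 1422077_at, was 0.83 higher in HFD without overlap (adjusted p over all probe sets = 0.0135). Alb, whose promoter gave the D-box its name, differed by -0.06 ± 0.07. The nuclear receptor gene Nr1i3 differed by 0.09 ± 0.15. Acot4, Alb and Nr1i3 were singled out after their values were seen. With 1 array left out, the number that rose was between 0 and 2 and the number that fell between 1 and 3. The number that rose was 0 on leaving out HFD replicate 3 or control replicate 2 or 4, and 1 on leaving out HFD replicate 4 or 5 or control replicate 1 or 3. The number that fell was 3 on leaving out HFD replicate 4.

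Of 5 measured C/EBP genes, other basic leucine zipper factors of liver, 0 rose and 0 fell in limma. At an unadjusted p under 0.05, where 10.3% of all genes were higher and 8.78% lower, 3 of the 5 were higher and 0 lower, namely Ddit3 (0.77 ± 0.25), Cebpa (0.44 ± 0.18) and Cebpg (0.38 ± 0.16). The Cebpg difference was 0.22 on leaving out control replicate 4, and its other probe sets, 1425261_at and 1425262_at, were at 0.11 and -0.02. Cebpd differed by -1.07 ± 0.53 and was spread from -2.59 to 0.80 in HFD arrays, against 0.07 to 0.80 in control arrays. It was -0.60 on leaving out HFD replicate 1, and the other Cebpd probe set, 1456605_at, was at -0.01. Cebpe was not analysed here.

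**Figure D4:**
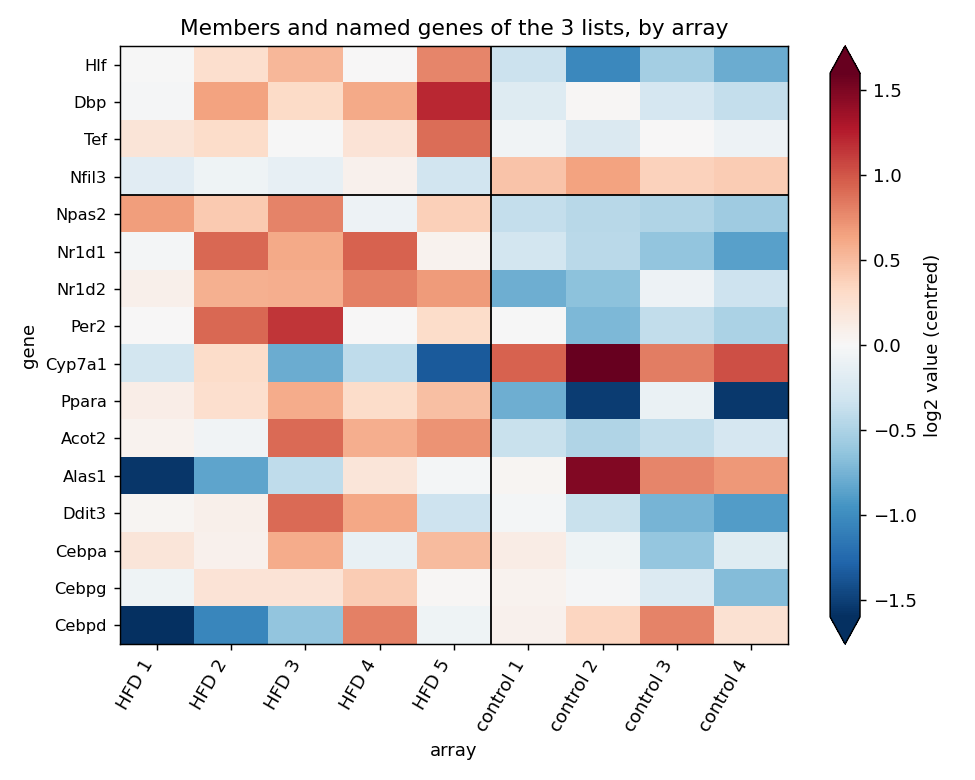
Log2 value, relative to the baseline of each probe set, of the 4 members and the named genes of the clock, D-box output and C/EBP lists (rows) in the 5 HFD and 4 control arrays (columns), with values beyond ±1.6 shown at the ends of the scale. Nfil3 and Cyp7a1 are lower in all HFD arrays than in any control array. Hlf, Npas2, Nr1d1, Nr1d2, Ppara, Acot2 and, very narrowly, Per2 are higher in all HFD arrays than in any control array.

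The genes whose values ran most like each member over the 9 arrays are given by Pearson r as a description. A difference between the diets that both genes show can enlarge this r in either direction. The r within the groups, after the group means were subtracted, therefore stands beside it. Most like Hlf were Fxyd1 (r = 0.99, within groups 0.97), Serhl (0.98, within groups 0.92) and Shpk (0.98, within groups 0.91), and most opposed were Acsl4 (-0.98, within groups -0.92), Noc4l (-0.98, within groups -0.91) and Snhg1 (-0.97, within groups -0.86). Nfil3 ran most like Hmgcs1 (0.99, within groups 0.93) and Msmo1 (0.98, within groups 0.92), enzymes of cholesterol synthesis, and Igha (0.99, within groups 0.91). Its most opposed genes were Arf5 (-0.97, within groups -0.79), Rdh7 (-0.97, within groups -0.75) and Slc27a2 (-0.97, within groups -0.76).

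Dbp ran most like Mtx2 (0.95, within groups 0.88), Acsm5 (0.94, within groups 0.86) and Rb1cc1 (0.94, within groups 0.87), and most opposed to Zfp715 (-0.95, within groups -0.88), Erv3 (-0.94, within groups -0.87) and Igtp (-0.94, within groups -0.85). For Tef the most alike were Tmem219 (0.95, within groups 0.92), Phf14 (0.94, within groups 0.96) and Cblc (0.94, within groups 0.89), and the most opposed were Dnase1l1 (-0.96, within groups -0.96), Rps27 (-0.96, within groups -0.93) and Eml2 (-0.95, within groups -0.92). No gene stood among the most alike or most opposed of more than 1 member. These are the extremes of 17514 genes over 9 arrays.

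Markers of other liver cells moved between the same groups, where 1.87% of all genes fell. Of 12 Kupffer cell markers 9 fell and 0 rose, and their mean lay between -1.30 and 0.12 in HFD arrays, against 0.16 and 1.36 in control arrays, without overlap. Of 10 endothelial markers 2 fell and 0 rose, with a mean between -1.11 and 0.23 in HFD arrays, against 0.15 and 0.67 in control arrays. All 10 had negative differences, and 9 were lower at an unadjusted p under 0.05 (8.78% of all genes). Of 8 measured lymphocyte markers 0 passed in limma, with 1 lower at an unadjusted p under 0.05 (8.78% of all genes), and the array means overlapped. Of 9 measured hepatocyte markers 1 fell, Hnf4a (-0.91 ± 0.19, 1 of its 4 probe sets). In all, 7 of these 9 had negative differences, and 5 (Tat, Tdo2, Cps1, Fgb and Hnf4a) were lower at an unadjusted p under 0.05. The rest lay near 0, namely Alb (-0.06), Apoa1 (-0.08), Apoa2 (0.06) and Ttr (0.01). Of the other Tdo2 probe sets, 1419093_at was at -0.42 and 1449337_at at 0.02. The hepatocyte mean lay between -0.32 and 0.01 in HFD arrays, against 0.09 and 0.30 in control arrays, without overlap. Nfil3 is also expressed in immune cells, and the part of these markers in its difference was not tested. HFD replicate 4 was the highest and HFD replicate 5 the lowest HFD array both for Nfil3 and for the Kupffer mean. Control replicate 2 was the highest control array for both, while the lowest was control replicate 3 for Nfil3 and control replicate 4 for the Kupffer mean. In whole liver, fewer cells of a type and less RNA per cell cannot be told apart.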

How the data were processed

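The deposited table held log2 values for 9 liver arrays (5 HFD, 4 control). The authors obtained them by RMA summarisation and quantile normalization and set each probe set against a median of samples, per the series' design text. RMA is also named, with no version, in the submitters' processing notes. The log base and software are not given in the sources used here, and the values were read as log2 because RMA returns log2. Centring removes levels, so that no filter on low signal was possible, and the number of arrays limits the precision. Groups were taken from the diet labels, and replicates were numbered in order of deposition.

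The table had 41842 rows, and 41782 remained after removal of 60 Affymetrix controls. Of these, 32801 carried 1 symbol in the annotation, 862 several and 8119 none. All 4 member symbols were current by Entrez ID. The diets were tested in R 4.3.3 with limma 3.58.1 (two-sided lmFit and eBayes without covariates). The fit used every probe set for the members, and 1 probe set per gene, that with the largest standard deviation, for the lists (17514 genes, Benjamini-Hochberg in each). The fit was tested on simulated data. Named genes were all members, the list genes past the threshold with the 4 of lowest p in each list, and for each member the 3 most alike and 3 most opposed genes, without clone names. The members and lists were chosen with earlier results of these data known. Matches to promoter letters and figures were made in Python 3.11.15 (matplotlib 3.10.9). Alternatives were 2 further scalings, leaving out the 25% of features of smallest standard deviation, robust eBayes, array weights, an unmoderated model, a threshold of 0.01, averaging probe sets, omission of each array in turn, and joint omission of HFD replicate 5 and control replicate 1.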

Additional observations from a re-analysis of the deposited data

Results flagged for a closer look

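Of the 46 sets of values examined for an array far from its group (the members, the balances against Nfil3 and the named list genes, each in HFD and in control), 1 was picked out by Dixon's test at its 95% level, where chance picks about 1 in 20. Tef minus Nfil3 was 1.20 in HFD replicate 5, with the other HFD arrays between 0.12 and 0.38. The same array had the highest Tef value in 1424175_at (0.90) and the lowest Nfil3 value (-0.30).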

How the results depend on the processing

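No difference of a member probe set changed sign under any alternative run. Nfil3 passed under each of its 17 alternatives. The number of member probe sets past the threshold was 3 as reported and 1 (Nfil3) both in an unmoderated model and at a threshold of 0.01. Hlf 1434735_at (0.58) had an adjusted p = 0.103 in the unmoderated model and 0.0275 against the threshold of 0.01, and Hlf 1434736_at (0.99) had 0.0969 and 0.017. Dbp 1438211_s_at (0.76) passed when features of small standard deviation were left out (adjusted p = 0.0496), and Tef 1450184_s_at passed under array weights (0.45, adjusted p = 0.0256). Leaving out 1 array gave differences of 0.14 to 0.26 for Dbp 1418174_at, 0.59 to 0.90 for Dbp 1438211_s_at, 0.51 to 0.70 for Hlf 1434735_at, 0.87 to 1.10 for Hlf 1434736_at, 0.27 to 0.49 for Tef 1424175_at, 0.30 to 0.45 for Tef 1438033_at, 0.33 to 0.45 for Tef 1450184_s_at and -0.64 to -0.53 for Nfil3, with 1 to 4 member probe sets past the threshold. The balances against Nfil3 then ran from 1.40 to 1.71 for Hlf, 1.14 to 1.47 for Dbp and 0.81 to 1.08 for Tef. The clock list had 2 to 4 genes higher and 0 lower without 1 array, and 1 higher at a threshold of 0.01. The D-box output list had 0 to 2 higher and 1 to 3 lower without 1 array, 0 higher and 0 lower at a threshold of 0.01, and 1 higher and 2 lower without HFD replicate 5 and control replicate 1. It had 2 lower after a further quantile normalization, with features of small standard deviation left out, or under array weights. The C/EBP list had 0 higher and 0 lower without any 1 array, and 1 higher (Ddit3) with probe sets averaged or without HFD replicate 5 and control replicate 1. The causes were not tested. No paired analysis was made, because the labels match no HFD array to a control array.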
